A study of Mus musculus with 7 samples.

Results

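The comparison described here sets treated NIH3T3 fibroblasts against non-treated ones at 3 h after treatment, on the 4 arrays labelled for that time out of 7 in the series. NIH3T3 is an immortalised line of mouse embryonic fibroblasts, the connective tissue cells that secrete collagen matrix. The series describes the treated cells as overexpressing Acid1. Whether the non-treated fibroblasts did so too is not stated, so an effect of the treatment and one of Acid1 cannot be told apart. The labels do not give the nature of the treatment, what Acid1 stands for, the vector or the number of clones, and none of the 20355 probes was annotated with Acid1, so its level is not analysed here. On each array cDNA of treated cells was hybridised together with cDNA of non-treated cells, labelled in opposite dyes. Replicates 1 and 2 had the treated sample in Cy5, and replicates 3 and 4 had it in Cy3. At 10 h, used here only for contrast, there were 3 arrays, replicates 1 and 2 with the treated sample in Cy5 and replicate 3 in Cy3.

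Fibroblasts answer a stimulus in an order that is well described. Immediate early genes such as the AP-1 and zinc finger factors change first, followed by genes for growth, matrix and metabolism. Cells short of sterol switch on the enzymes of cholesterol synthesis through SREBP factors, and cells with misfolded protein in the endoplasmic reticulum (ER) or short of amino acids raise chaperones and ATF4 targets. These responses guided the gene lists described below, which were also chosen with earlier results of these data known.

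Every value is a log2 ratio, read as treated over non-treated and centred on the median of its array, so 1 is a doubling and -1 a halving. The labels do not state this direction, so the value read as Cy5 over Cy3 is given beside the main results. That reading turns the sign on replicates 3 and 4, so its fitted value follows the difference between the dye orientations. The sign of a repeated stand-in value, which followed the dye of the treated sample, is given with the processing. Ratios were tested against 0 with limma. The non-treated RNA is 1 of both channels, so its spread enters each ratio and cannot be told apart from that of the treated RNA. The labels do not tell whether the 4 arrays stem from different cultures, and a p-value here covers the variation between arrays alone, which may be technical. In such bulk samples fewer cells of a type and less RNA per cell cannot be told apart.

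Between 13262 and 15157 spots had a measured ratio on the 3 h arrays. Of these, 56.05% to 63.44% matched a ratio of small whole numbers (up to 8) to within 0.0016 on the log2 scale once a constant of the array was taken off, against 11.98% to 13.07% on the 10 h arrays. Such values are called coarse below, and a probe with 4 values of which none was coarse is called better measured. After centring, a coarse ratio of 1 to 1 stands at 0.464, 0.138, 0 and 0.585 on replicates 1 to 4. There were 2114 better-measured probes, 1641 of them with 1 gene symbol, and 891 probes with all 4 values coarse. Across the better-measured probes the 2 arrays with treated RNA in Cy5 correlated at a Pearson r of 0.466 and the 2 with treated RNA in Cy3 at 0.25. Arrays of opposite dye correlated at -0.0232 to 0.229. Probes share arrays and are not independent, so these are descriptions. In the 106 genes with at least 2 better-measured probes, the fitted values of the first 2 had the same sign in 67 (63.2%). In the 329 genes with at least 2 probes of 4 values that held coarse ones, they did so in 182 (55.3%).

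The label of fibroblasts could be checked only through which genes gave a usable ratio, since a ratio carries no level. Of 17 fibroblast markers on the array, 16 could be fitted, among them Vim, Thy1, Pdgfra, Pdgfrb, Col1a1 and Dcn. Their probes had a measured value in 83.1% of cases at 3 h, and 30.1% of those values were coarse. The lists for fat, skeletal muscle, blood, epithelial, neural and erythroid or liver cells had 53.6% to 68.8% of values measured, and 52.4% to 70.8% of those were coarse. The measured share alone does not separate the lists, since it was 67.7% for the collagens and 67.5% for genes of G2/M and mitosis, which lie within that range, at coarse shares of 36.9% and 47.2%. Ribosomal protein genes had the lowest coarse share, 28.1%, and ion channel genes, which fibroblasts mostly do not use, had 68.5%.

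**Figure D1:**
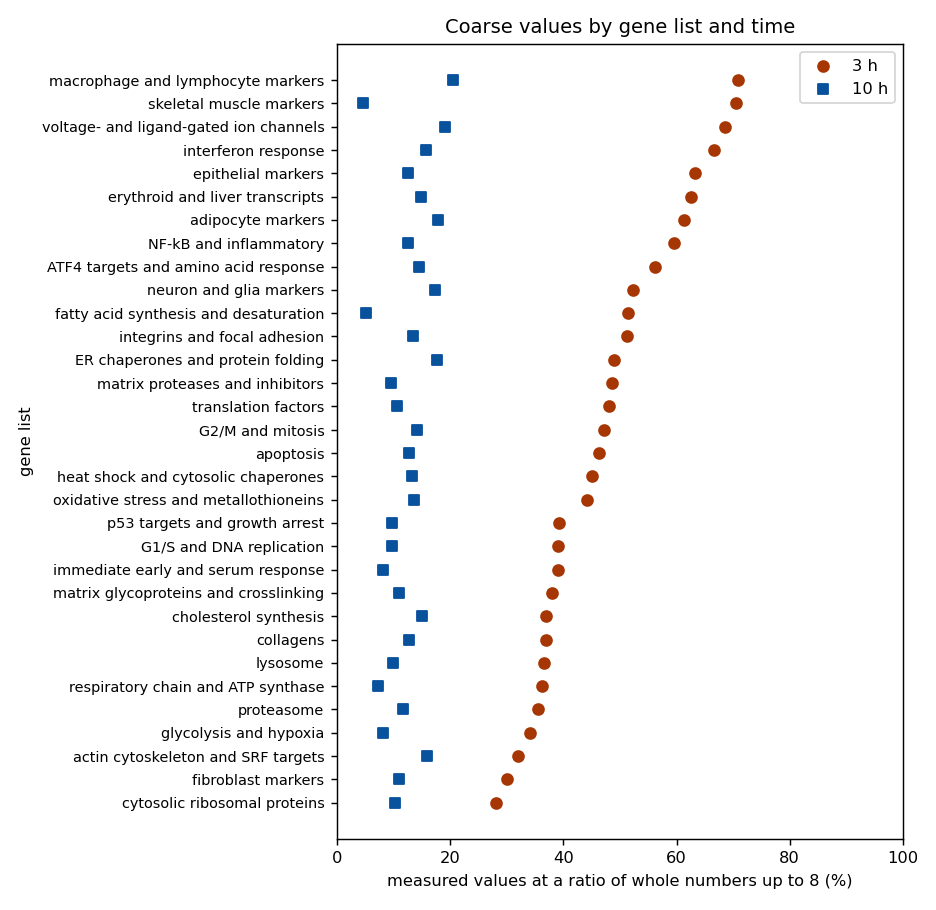
Share of measured values that lay at a ratio of whole numbers up to 8, in percent, for each gene list at 3 h (circles) and 10 h (squares). At 3 h the share ran from 28.1% for ribosomal proteins and 30.1% for fibroblast markers to 70.8% for macrophage and lymphocyte markers, and for every list plotted it was lower at 10 h.

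The first question is which genes set treated cells apart from non-treated cells at 3 h. No single probe or gene passed the test. Of 12401 probes with at least 3 values, 0 had an adjusted p under 0.05 in limma (0%), the smallest being 0.569, and of 6974 genes 0 did (0%), the smallest being 0.585. Without adjustment, 1074 probes (8.66%) had a p under 0.05, 409 higher (3.3%) and 665 lower (5.36%). The fitted probes as a whole lay below 0, with a median of -0.10 and 42.8% above 0 (37.6% of the better-measured ones), so counts around 0 lean to the lower side. Of 7143 probes with 4 values, 808 were below 0 on every array (11.3%) and 318 above 0 on every array (4.45%). Among the better-measured probes 240 of 2114 were below 0 on every array (11.4%) and 88 above it (4.16%), and an unadjusted p under 0.05 was reached by 96 on the lower side (4.54%) and 11 on the higher side (0.52%). Read as Cy5 over Cy3, 642 probes had an unadjusted p under 0.05, split nearly evenly into 307 higher and 335 lower, and again 0 passed, with a smallest adjusted p of 0.802. The dye covariate of the main fit gave the same count of 642 and the same smallest adjusted p.

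The genes named next are the better-measured probes with 1 symbol, the same sign on 4 of 4 arrays and the smallest p. Since that choice fixes their agreement, the values describe them and carry no support of their own. Each had an adjusted p of 0.569 in limma, except Pfn1 at 0.583.

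On the higher side, a sterol enzyme came first. Msmo1, the methylsterol monooxygenase that strips methyl groups from sterol intermediates (probe 2130), had log2 ratios of 1.18, 0.89, 0.56 and 1.64 on replicates 1 to 4. Its mean was 1.07 ± 0.46 (SD, n = 4), or 2.10-fold. Replicate 4 was the highest and replicate 3 the lowest, a pattern shared by several of the genes that follow.

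Dlk1, a transmembrane protein that holds back fat cell differentiation, was present as a pair of probes, and both were among the genes named by the rule. Probe 2590 had 0.60, 0.78, 1.11 and 1.04 on replicates 1 to 4, with a mean of 0.89 ± 0.24 (SD, n = 4). Probe 20248 had 0.94, 0.74, 0.54 and 1.72, with a mean of 0.98 ± 0.52 (SD, n = 4). All 8 values of Dlk1 were above 0, and the probes differed in which array was highest. Dlk1 was the only gene named on both of its probes.

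Srm, spermidine synthase in the polyamine pathway (probe 15335), had 1.45, 1.11, 0.30 and 0.86, with a mean of 0.93 ± 0.48 (SD, n = 4). Akap9, a scaffold of the Golgi and centrosome (probe 9388), had 1.12, 0.41, 0.88 and 1.27. Here the lowest array was replicate 3 for Srm and replicate 2 for Akap9. A second, coarse probe of Srm had a fitted value of 0.51 and one of Akap9 had -0.28, so the probes of Akap9 disagreed in sign.

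Receptors and their signalling partners followed. Il7r, the receptor chain for interleukin 7 (probe 20292), had 0.73, 0.76, 0.73 and 1.14 on replicates 1 to 4. Ptpre, a tyrosine phosphatase (probe 5966), had 0.84, 1.08, 0.44 and 1.20. Both had replicate 4 as their highest array.

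Hgs, which sorts ubiquitinated receptors on endosomes (probe 16564), had 0.20, 0.65, 1.19 and 0.85, and was lowest where treated RNA was in Cy5. Fam83g, a partner of casein kinase 1 (probe 517), had 0.76, 0.79, 0.54 and 1.40. Pfn1, profilin, which supplies actin monomers for filament growth (probe 2958), had 0.60, 0.41, 0.54 and 1.07. The second probe of Pfn1, measured on 3 arrays, had a fitted value of 1.54 in the same direction.

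The lower side held larger ratios. Herc2, a very large ubiquitin ligase with a role in DNA damage signalling (probe 10255), had -2.71, -2.27, -1.46 and -1.56 on replicates 1 to 4. Its mean was -2.00 ± 0.59 (SD, n = 4). The values were lower on the arrays with treated RNA in Cy5. A second better-measured Herc2 probe had a fitted value of -0.48, the same sign at a smaller size.

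Mycbp2, another very large ubiquitin ligase (probe 7164), had -1.30, -2.44, -0.87 and -1.08, and its other probe had -0.31. Znrf1, a smaller ligase of the RING type (probe 17137), had -1.63, -1.32, -2.05 and -1.10, with a mean of -1.52 ± 0.41 (SD, n = 4). Its 2 other probes had 0.07 and -0.70, so a second better-measured probe of Znrf1 did not show the low value.

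Secreted and adhesion proteins were also found there. Sparcl1, a secreted relative of the matrix protein Sparc (probe 8166), had -1.63, -1.80, -2.05 and -1.29, with a mean of -1.69 ± 0.32 (SD, n = 4). Sdk2, an adhesion molecule of the immunoglobulin family (probe 15595), had -2.45, -2.51, -0.65 and -0.46. Sparcl1 was similar on all arrays, whereas Sdk2 stood at 2 levels by dye. Other probes of Sdk2 had 0.58 and -0.55, and the other probe of Sparcl1 had -0.49.

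Membrane transport was represented by Asic2, a subunit of proton-gated sodium channels (probe 18624), which had -1.80, -2.11, -1.74 and -0.92 and a mean of -1.64 ± 0.51 (SD, n = 4). Slc34a3, a sodium-phosphate cotransporter known from the kidney (probe 1077), had -2.58, -4.10, -0.78 and -0.26. Its arrays split by dye, with a value of -1.41 when read as Cy5 over Cy3.

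Dbp, a transcription factor of the circadian clock output (probe 18490), had -2.09, -1.98, -2.28 and -0.68, with replicate 4 apart from the other arrays. Tpm4, a tropomyosin that coats actin filaments (probe 20046), had -1.95, -4.24, -0.85 and -1.15, and its other probe had 0.28. Snx18, a sorting nexin of the endocytic pathway (probe 20043), had -1.01, -1.21, -1.36 and -1.02, the tightest set of the lower side, with a mean of -1.15 ± 0.17 (SD, n = 4). A second probe of Snx18 had 0.27.

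**Figure D2:**
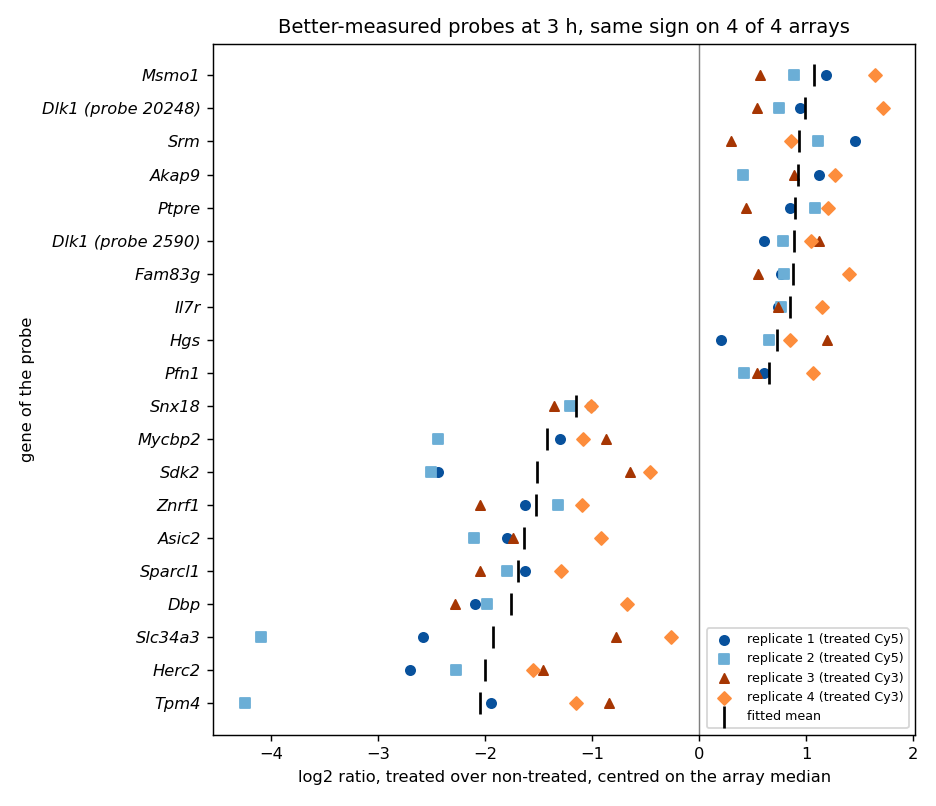
Log2 ratio, treated over non-treated, of the 10 higher and 10 lower better-measured probes at 3 h; points are the 4 arrays, coloured by the dye of the treated sample, and bars the fitted means. Msmo1 and both Dlk1 probes lie above 0 on each array at about 1, and Herc2, Tpm4 and Slc34a3 have the lowest means, with replicate 2 far down for Tpm4 (-4.24) and Slc34a3 (-4.10).

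Read as Cy5 over Cy3, the means of the 10 higher probes ran from -0.30 for Hgs to 0.35 for Srm, and those of the 10 lower probes from -1.41 for Slc34a3 to 0.05 for Znrf1. Their sizes at 3 h thus rest on the treated over non-treated reading.

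Over all probes, whether coarse or not, the same rule named mostly coarse ones. The higher side held Senp2, a SUMO protease, with 1.46, 1.14, 2.58 and 2.39, 3 of the 4 values coarse, and Chmp1b, an ESCRT subunit, with 1.05, 2.14, 3.46 and 2.58, also 3 coarse. Better-measured or other probes of these genes stood near 0, at -0.04 for Senp2 and 0.09 for Chmp1b. Pik3ip1, which restrains PI3-kinase, had 4.46, 3.14, 1.17 and 0.22, high where treated RNA was in Cy5, and its other probe had 0.20. The others on that side were Sncb (fitted value 2.02), Smarcal1 (2.01), Cypt3 (1.92), Fam3c (1.86), Prss39 (1.59), Sod1 (1.55) and Lypd2 (1.40). A better-measured probe of Sod1, the cytosolic superoxide dismutase, had -0.23.

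On the lower side, Gpc4, a cell-surface heparan sulfate proteoglycan that presents growth factors, had -2.08, -2.03, -1.58 and -1.74, 2 of them coarse. Arid1b, a subunit of the BAF chromatin remodelling complex, had -2.79, -1.77, -1.88 and -2.42 on 1 probe, while its 3 other probes had 0.69, 0.00 and -1.39. Gpc4 was similar on all arrays, and the probes of Arid1b disagreed. Gimap3 (-2.03), C2cd3 (-1.84), Epm2aip1 (-1.77) and Hdac11 (-1.66) completed that side beside Herc2, Sparcl1, Sdk2 and Asic2.

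The second question is whether genes of known pathways lay together at 3 h. Over all 6974 genes the median fitted log2 ratio was -0.08, and 3059 were above 0 (43.9%). That median was -0.03 without replicate 3 and -0.20 without replicate 4, and list medians without an array are to be read against it. An unadjusted p under 0.05 was reached by 244 genes on the higher side (3.5%) and 351 on the lower side (5.03%). Of the 4679 genes with 4 values, 252 were above 0 on every array (5.39%) and 471 below it (10.1%). A gene's value is the mean over its fitted probes, which can differ in sign on a single array. Coarse values entered that mean. Some genes named below had every value at a coarse ratio, among them Sec61a1, Col1a1, Casp2, Rplp0, Rpl5, Twist1, Mmp14, Dffa, Fos and Cyp51. The lists are read against these shares and were not tested, and no member passed over all genes. The better-measured probes as a whole had a median of -0.49 on replicate 3 and 0.19 on replicate 4, against -0.04 and -0.08 on replicates 1 and 2. The part of these array medians in the list values was not tested.

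Sterol synthesis comes first among the metabolic lists. Of 13 members on the array, 10 were fitted, 7 of them above 0, with a median of 0.13. Hmgcs1, the HMG-CoA synthase that opens the pathway, had 0.87, 0.82, 1.37 and 1.78 on replicates 1 to 4, with a mean of 1.21 ± 0.45 (SD, n = 4). It was above 0 on every array and highest where treated RNA was in Cy3 (adjusted p = 0.585 in limma over genes). With Msmo1 it was 1 of 2 members with an unadjusted p under 0.05.

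Fdft1, squalene synthase, had 0.58, 0.82, 0.00 and 1.503, and Sqle, squalene epoxidase, had 1.15, 0.41, 0.00 and 0.82. Both were above 0 on each array but replicate 3, where the value was 0. The remaining members lay nearer to 0: Cyp51 had a fitted value of 0.19, Dhcr7 and the regulator Srebf2 0.06 each, Ebp -0.08, Pmvk -0.11 and Sc5d -0.37. The high values were thus held by 4 of the 10 enzymes and regulators, and read as Cy5 over Cy3 the list median was -0.17, with Hmgcs1 at -0.36 and Msmo1 at -0.03.

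The promoters of the 2 members with the largest values are shown because SREBP factors act through short elements in such windows. The sequences are RefSeq windows of the GRCm38.p6 build, 300 bases around the start, in the direction of the gene. They lie at chr13:119690101-119690400 on the plus strand for Hmgcs1 and chr8:64733529-64733828 on the minus strand for Msmo1. Capitals mark the sterol regulatory element TCACNCCAC and the CCAAT box CCAAT, searched on both strands, so ATTGG is a CCAAT box on the other strand.
Hmgcs1: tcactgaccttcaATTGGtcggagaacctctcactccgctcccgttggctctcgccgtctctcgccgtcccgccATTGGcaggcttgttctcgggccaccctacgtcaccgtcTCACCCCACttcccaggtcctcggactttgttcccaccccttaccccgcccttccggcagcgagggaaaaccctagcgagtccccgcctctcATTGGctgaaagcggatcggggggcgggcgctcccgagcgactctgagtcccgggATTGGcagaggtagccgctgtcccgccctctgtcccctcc
Msmo1: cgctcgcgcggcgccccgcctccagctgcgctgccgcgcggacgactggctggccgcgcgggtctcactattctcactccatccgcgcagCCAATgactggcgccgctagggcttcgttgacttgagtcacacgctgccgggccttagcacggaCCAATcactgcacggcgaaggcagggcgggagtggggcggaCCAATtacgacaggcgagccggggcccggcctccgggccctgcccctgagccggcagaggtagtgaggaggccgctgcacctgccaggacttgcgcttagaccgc
The window of Hmgcs1 held 1 sterol element and 4 CCAAT boxes, and that of Msmo1 held 3 CCAAT boxes and no match to the sterol element. Of 32851 such windows over all genes, 408 (1.24%) held the sterol element and 12289 (37.4%) a CCAAT box. Of the 10 fitted members of the list, 8 had a window and Hmgcs1 alone held the sterol element. A match describes the letters and does not show that a factor was bound.

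Chaperones and folding enzymes of the ER are the next list. Of 17 fitted members 12 were above 0, with a median of 0.13. Calr, the lectin chaperone calreticulin, had 0.41, 0.71, 0.32 and 0.76, and Sec61a1, the channel through which proteins enter the ER, had 0.46, 1.14, 0.00 and 1. Calr was above 0 on all 4 arrays and evenly so, with a mean of 0.55 ± 0.21 (SD, n = 4, adjusted p = 0.613 in limma). Hspa5, the master chaperone of the compartment, was the other member above 0 on every array, between 0.13 and 0.99.

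The lowest members were Dnajb11 at -0.95 and Sel1l at -0.61. The list median was 0.33 without replicate 3 and -0.01 without replicate 4, against -0.03 and -0.20 over all genes. It was 0.01 when read as Cy5 over Cy3.

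The promoter of Calr is shown for the ER stress response element, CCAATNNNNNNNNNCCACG, a CCAAT box and a CCACG joined by a spacer of 9 bases. Its RefSeq window lies at chr8:84846882-84847181 on the minus strand of GRCm38.p6. Capitals mark the element, which reads on the other strand here.
Calr: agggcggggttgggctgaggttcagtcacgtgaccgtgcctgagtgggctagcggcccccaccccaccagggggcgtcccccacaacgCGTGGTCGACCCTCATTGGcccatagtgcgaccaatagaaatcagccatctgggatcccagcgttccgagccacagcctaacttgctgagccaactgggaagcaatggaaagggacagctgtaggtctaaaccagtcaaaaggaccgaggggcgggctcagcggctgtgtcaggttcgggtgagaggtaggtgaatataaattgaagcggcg
The element was found in 4 of the 15 fitted members with a window (Calr, Canx, Dnajc3 and Hspa5) and in 39 of 32851 windows over all genes (0.119%). The fitted values of these 4 genes were 0.55 for Calr, 0.47 for Hspa5, 0.29 for Dnajc3 and 0.02 for Canx. The genes with the element thus did not lie at 1 level.

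Targets of ATF4, the factor that restores amino acid supply, had a list median above 0 on every array. Of 16 fitted members 12 were above 0. The list median was 0.22, and on the single arrays it was 0.20, 0.24, 0.28 and 0.59. Of the list's values 56.25% were coarse, and the median of replicate 4 stood at a coarse ratio of 1 to 1. Of the 13 members with 4 values, 5 were above 0 on every array and none was below 0 on every array.

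Those 5 were Atf4 itself, with 0.18, 0.52, 0.92 and 0.58, Asns, asparagine synthetase, between 0.21 and 1.24, the amino acid transporter pair Slc3a2 and Slc7a5, and the tryptophan ligase Wars. Atf5, a related factor measured on 3 arrays, had 1.05, 0.38 and 1.32 on replicates 1, 2 and 4. Ddit3 and Atf3, which mark stronger stress, lay near 0, at -0.10 and 0.07, and Ppp1r15a had -0.30. The median was 0.45 without replicate 3, and read as Cy5 over Cy3 it was -0.06, so the sign of the list rests on the reading.

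Matrix genes divide by role. Of 11 fitted collagens 8 were above 0, with a median of 0.22. On the arrays it was 0.31, 0.30, -0.28 and 0.29, so replicate 3 stood apart, and none of the 8 collagens with 4 values had the same sign on every array. Col1a1, a chain of fibrillar collagen, had 0.55, 1.32 and 1.58 on replicates 2 to 4, while its partner chain Col1a2, on 4 probes, had 0.11, 0.19, -1.02 and 0.21. The 2 chains of type I collagen thus did not lie together. The collagen median was -0.04 without replicate 4, against -0.20 over all genes.

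Of 24 fitted matrix glycoproteins and crosslinking enzymes, 16 were above 0, with a median of 0.18. Sparcl1, with the smallest p of the list, was below 0 on every array, at -1.63, -0.46, -2.93 and -0.59 over 2 probes. Its mean was -1.40 ± 1.145 (SD, n = 4, adjusted p = 0.585 in limma), with more spread than on probe 8166 alone. Sparc, a collagen-binding glycoprotein, had 0.60, 0.50, 0.70 and 1.22 over 3 probes, with a mean of 0.75 ± 0.32 (SD, n = 4, adjusted p = 0.585 in limma). P4ha1 and P4ha2, the alternative catalytic subunits of prolyl hydroxylase, which stabilises collagen, lay on opposite sides. P4ha1 had 0.22, 0.01, 0.71 and 0.63, and P4ha2 had -0.86, -0.41, -0.46 and -0.68. Plod3, a lysyl hydroxylase, and Thbs1, thrombospondin, were above 0 on every array at fitted values of 0.35 and 0.34. Fn1, fibronectin, on 5 probes, had 0.38, 0.52, -0.41 and 0.50.

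Among proteases and their inhibitors 5 of 12 were above 0. Mmp14, which is anchored in the membrane and cleaves collagen, had 0.20, -0.28, 1.59 and 2.17, high only where treated RNA was in Cy3, and -0.96 when read as Cy5 over Cy3. Plau, the urokinase protease, had -0.91, -4.10, -0.21 and -0.74, set by replicate 2. Timp1, Timp2 and Timp3, the inhibitors, had fitted values of -0.31, 0.33 and -0.24.

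The receptors for matrix had the highest list median. Of 11 fitted integrins and focal adhesion genes 8 were above 0, at a median of 0.45, and 0.09 when read as Cy5 over Cy3. Itgav, an alpha chain of vitronectin receptors, had 0.83, 0.23, 0.32 and 0.40. Itgb1, the most widely shared beta chain, on 6 probes, had -0.05, -0.14, -0.06 and 0.49. Pxn, the adaptor paxillin, had -0.14, 0.63, 1.77 and 0.91. By array the list median was 0.71 and 0.58 on replicates 1 and 4, and 0.00 on the others. Of the list's values 51.2% were coarse, and the medians of replicates 3 and 4 both stood at a coarse ratio of 1 to 1.

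For the cytoskeleton 15 of 22 fitted genes were above 0, with a median of 0.12. Pfn1, averaged over 2 probes, had 0.74, 0.28, 1.56 and 1.07, the last from probe 2958 alone. The median was -0.04 without replicate 4, against -0.20 over all genes.

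Immediate early and serum response genes lay mostly below 0, with 3 of 17 above it and a median of -0.15. Zfp36, which destabilises inflammatory transcripts, had -0.80, -0.31, -2.38 and -0.82. Btg2, an antiproliferative gene, had -0.77, -0.73, -1.12 and -0.62 over 2 probes, with a mean of -0.81 ± 0.22 (SD, n = 4). Klf6 had -0.52, -0.24, -0.82 and -0.45. These 3 were below 0 on every array, and Fosl1, an AP-1 subunit, was the 1 member above 0 on every array, between 0.06 and 0.54.

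The classical markers had smaller values: Fos had a fitted value of -0.03, Egr1 -0.30, Jun -0.32 and Ccn1 -0.01. By array the list median was -0.33, -0.28, -0.47 and 0.29, with replicate 4 on the other side of 0. It was 0.03 without replicate 3 and 0.02 when read as Cy5 over Cy3.

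Cell cycle and growth arrest genes did not lie on 1 side. The median was 0.00 over 27 genes of G1/S and DNA replication, 13 above 0, and 0.21 over 20 genes of G2/M and mitosis, 14 above 0. Pole, the leading strand polymerase, had 1.52, 1.32 and 0.58 on replicates 2 to 4, and Kif20a, a mitotic kinesin, had 2.05, 0.42 and 0.42 on replicates 1, 3 and 4. The G2/M median was -0.05 without replicate 4, against -0.20 over all genes, and -0.09 when read as Cy5 over Cy3. Of 20 genes of p53 and growth arrest 9 were above 0, at the median of all genes (-0.08). Dbp, Pik3ip1 and Btg2, described above, belong to that list.

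Apoptosis genes had a median of 0.03, with 10 of 19 above 0, and 3 of them had an unadjusted p under 0.05, all lower. Casp2, an initiator caspase, had -1.86, -1.58 and -1.74 on replicates 2 to 4. Apaf1, the scaffold of the apoptosome, had -1.28, -1.17, -1.61 and -0.45, and Dffa, which holds back the DNA-cutting nuclease, had -1.86, -2.18 and -0.15 on replicates 1, 2 and 4. Casp9, which Apaf1 activates, had a fitted value of 0.10, and Bcl2l1, a survival factor on 4 probes, 0.05. The median was -0.14 without replicate 4, against -0.20 over all genes.

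Among genes of oxidative stress 10 of 21 were above 0. Gclc, which makes the precursor of glutathione, had 1.46, 1.14, 0.47 and 0.58, and Nfe2l2, the factor NRF2 that drives it, had -0.23, -1.67 and -2.27 on replicates 1, 2 and 4. The factor and its target thus had opposite signs. Of 18 genes of glycolysis and hypoxia 11 were above 0. Slc2a3, a glucose transporter, had 3.63, 3.14 and 1.81 on replicates 1 to 3, and Hif1a, the hypoxia factor, had -1.30, -1.05, -0.09 and -0.58.

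Slc2a3 had the repeated extreme value on replicate 4, and with such values kept its fitted value was -1.83. Gclc is a mean over 2 probes that each lacked an array and had opposite signs on replicate 3. With each array left out its fitted value ran from -0.28 without replicate 1 to 2.37 without replicate 4.

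Genes of translation and respiration were numerous and close to 0. Of 52 ribosomal protein genes 15 were above 0, at a median of -0.15, and by array the median was -0.26, -0.29, -0.37 and 0.25. Replicate 4 again lay on the other side. Rpl27 had -1.03, -0.96, -0.81 and 0.09, while the 3 members with the smallest p were above 0. Rpl32 had 2.31, 0.74 and 0.58 on replicates 2 to 4, Rplp0 had 1.05, 0.72 and 2.00 on replicates 1 to 3, and Rpl5 had 2.05, 0.72 and 1 on replicates 1 to 3. Rplp0 and Rpl5 were each on 1 probe, and all their values were coarse. Translation factors had a median of 0.07, with Eif4e, the cap-binding protein, at 1.34, 0.76, 0.37 and 0.83 over 3 probes and Eif3j1 at -1.25, -2.44, 0.32 and -0.42.

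Of 52 genes of the respiratory chain and ATP synthase 14 were above 0, at a median of -0.18, and 4 had an unadjusted p under 0.05, all lower. Sdhd, of complex II, had -1.27, -1.86, -0.32 and -0.09. Ndufb3 and Ndufs6, of complex I, had -0.46, -0.30, -1.64 and -0.82, and -0.36, -1.14, -0.72 and -0.87. Atp5b, the catalytic chain of ATP synthase, had -1.44, -1.28 and -0.68 on replicates 1 to 3. Of 41 members with 4 values, 6 were below 0 on every array and 1 was above it, shares to be set against 10.1% and 5.39% of all genes.

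**Figure D3:**
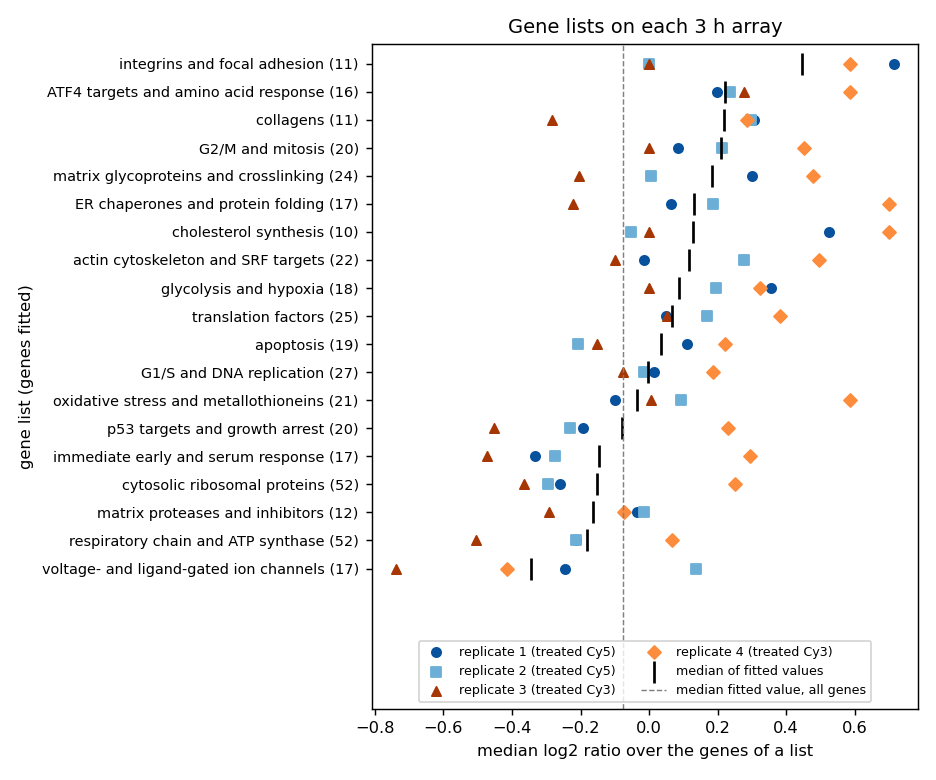
Median log2 ratio of 19 gene lists on each 3 h array (points), with the median of the fitted values (bars) and that of all genes at -0.08 (dashed line); the number of genes fitted is in brackets. ATF4 targets and translation factors lie above 0 on all 4 arrays. Ribosomal, respiratory, immediate early and p53 and growth arrest genes lie below 0 on replicates 1 to 3 and above it on replicate 4. The better-measured probes as a whole did so too, with medians of -0.04, -0.08, -0.49 and 0.19.

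Channels were included because proton-gated subunits were on the array. Of 17 fitted voltage- and ligand-gated channel genes 7 were above 0, with a median of -0.34, and 68.5% of their values at 3 h were coarse. Asic2 is described above, and Cacna1f, a calcium channel subunit of the retina, had 2.05, 1.60 and 3.54 on replicates 1 to 3. With the repeated extreme values kept, Cacna1f had -2.18. Read as Cy5 over Cy3 the list median was 0.08.

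Cell type lists other than that of fibroblasts rested on 6 to 10 fitted genes and coarse values, with medians from -0.58 for epithelial to 0.10 for skeletal muscle markers. The fibroblast markers had a median of 0.23, with 11 of 16 above 0 and 0.35, 0.51, -0.56 and 0.35 on the arrays. Twist1, a mesenchymal transcription factor, had 0.46, 0.72 and 1.59 on replicates 1 to 3, and Vim, the filament protein vimentin, had 0.26, 0.71, -0.12 and 0.85.

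The third question is whether the values at 3 h differed from those at 10 h, which was tested in 1 fit over all 7 arrays. Of 11559 probes 0 passed in limma (0%), with a smallest adjusted p of 0.5, and 926 had an unadjusted p under 0.05 (8.01%). Because the probes below were chosen for their 3 h values, a value nearer to 0 at 10 h is partly built in.

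The 4 sterol genes described above and Akap9 had means above 0 at both times, and whether their values were alike was not tested. Msmo1 had 0.79, 0.96 and 0.74 on the 3 arrays at 10 h, and its difference, 10 h minus 3 h, was -0.24 (SE 0.41). Hmgcs1 had 0.52, 0.75 and 0.74, each below its lowest value at 3 h, with a difference of -0.46 (SE 0.35). Fdft1 and Sqle had differences of -0.01 (SE 0.45) and 0.02 (SE 0.39). At 10 h each of these 4 genes was above 0 on every array. Akap9 had 0.73, 0.98 and 0.83 at 10 h, a difference of -0.04 (SE 0.39).

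The other better-measured probes named on the higher side lay near or below 0 at 10 h. Dlk1 had 0.12, -0.07 and -0.11 on probe 2590 and 0.08, 0.05 and -0.18 on probe 20248, with differences of -0.87 (SE 0.36) and -0.99 (SE 0.43). Srm had -0.43, -0.22 and -0.32, with a difference of -1.32 (SE 0.39, adjusted p = 0.577). Srm was below 0 on every array at 10 h, and none of these differences passed. Among better-measured probes with 3 values at 10 h, 86 were above 0 on every array at 3 h. Of these, 23 (26.7%) were below 0 on every array at 10 h.

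On the lower side Dbp had 0.43, 0.47 and 0.75 at 10 h, a difference of 2.38 (SE 0.48, adjusted p = 0.556). Snx18 had 0.44, 0.41 and 0.35, and Znrf1 0.34, 0.56 and 0.42. The values of these 3 genes were above 0 on every array at 10 h and below 0 on every array at 3 h. Those of Asic2 and Slc34a3 were so too, at 0.02 to 0.29 at 10 h. Among better-measured probes with 3 values at 10 h, 234 were below 0 on every array at 3 h. Of these, 88 (37.6%) were above 0 on every array at 10 h. Sparcl1 and Tpm4 lay between -0.16 and 0.23. Herc2 had 0.36, -0.02 and -0.73, the widest of these at 10 h, with a difference of 1.91 (SE 0.50).

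**Figure D4:**
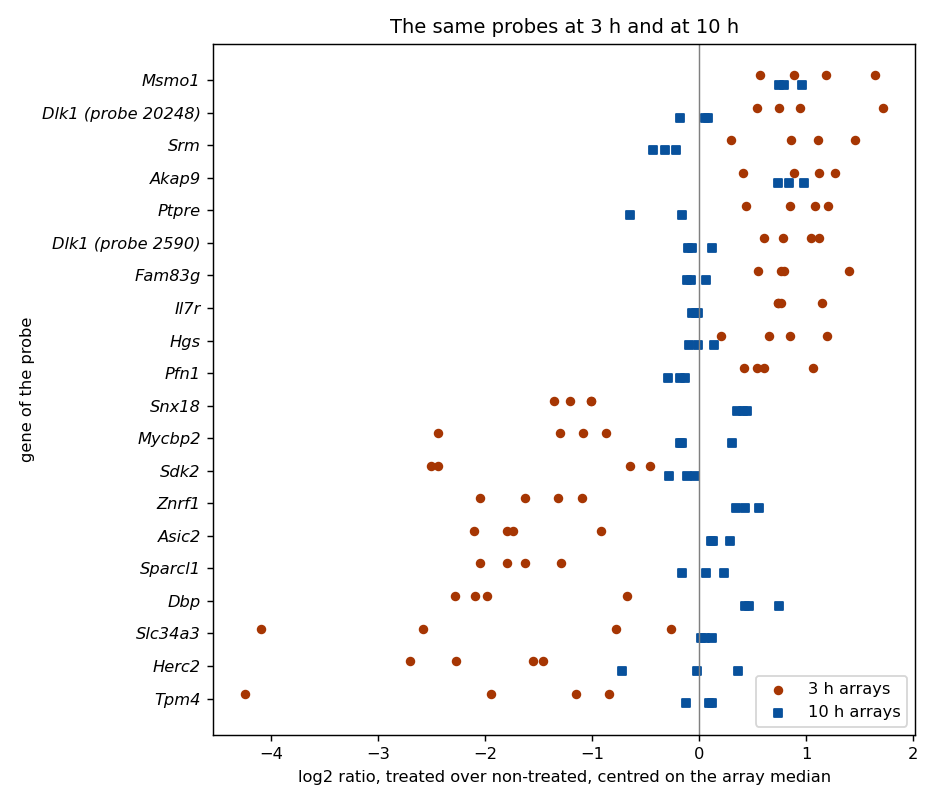
Log2 ratios of the same 20 probes on the 4 arrays at 3 h (circles) and the 3 arrays at 10 h (squares). Msmo1 and Akap9 overlap between the times, while Srm, Dbp, Znrf1 and Snx18 lie on opposite sides of 0; no difference passed the test over all probes.

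By list, the median difference of 10 h minus 3 h over all genes was 0.09. It was 0.64 over 51 ribosomal protein genes and 0.38 over 51 respiratory genes. It was -0.34 over 15 G2/M genes, -0.30 over 10 integrin and adhesion genes and 0.02 over 9 sterol genes. These differences share the 3 h arrays with the values above and were not tested.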

How the data were processed

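Gene expression was measured on 2-colour arrays. Total RNA was column-purified, copied to cDNA and labelled with Cy3 or Cy5 by an indirect method, per the labels' protocols, which also speak of organs and of pooled control animals; the source names, fibroblasts in both channels, were followed. The authors deposited 1 table of log2 ratios. Per the labels neither base nor direction is named, and how the arrays were scanned, corrected for background and normalized is not given in the sources used here; base 2 follows from the values, and treated over non-treated is an assumption.

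Each array held 1 repeated extreme value on 1177 to 1614 spots at 3 h, in size the log2 of 100000 shifted by a constant of the array. Such values, of absolute size over 15, were taken as missing. At 3 h they were 17.06 and 16.80 on the arrays with treated RNA in Cy5, and -16.71 and -16.09 with it in Cy3. The sign followed the dye at 10 h too. A single stand-in ratio would change sign so if the Cy3 arrays had been turned to treated over non-treated. The labels do not state such a turn, and it was not tested. Arrays were centred on their medians, and probes with at least 3 values entered limma's lmFit and eBayes (limma 3.58.1, R 4.3.3), with dye orientation as a covariate. Tests were two-sided with Benjamini-Hochberg adjustment over all probes or genes and a threshold of 0.05. The difference between times was fitted over 7 arrays with at least 2 values at 10 h. The number of arrays limits the precision. The code was tested on simulated data.

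Of 20355 probes, 14030 had 1 symbol in the platform annotation, 5 had several and 6320 none; 13994 gene identifiers were found in RefSeq. Genes are means over probes.

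Named probes had 1 symbol and the same sign on 4 of 4 arrays, the 10 with the smallest p in each direction, over all probes and again over better-measured ones. List members named are those with the smallest p, their number set after the values were seen, and others named for contrast after the values were seen. Members and lists were chosen with earlier results of these data known. Alternatives changed centring, scale, dye term, extreme values, filter, spread estimate, array weights, arrays in the fit, direction, coarse values, replicate block and each array left out.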

Additional observations from a re-analysis of the deposited data

Results flagged for a closer look

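Of 96 probes, genes and lists examined for an array that stands apart from the other 3, 5 were picked out, where chance gives about 1 in 20. These items are not independent, since some genes enter both as a probe and as a gene. The gap to the nearest array took 0.927 of the whole range for Il7r, whose replicate 4 (1.14) was above the others (0.73 to 0.76). It took 0.964 for the median of the collagens, where replicate 3 (-0.28) was below the others (0.29 to 0.31), and 0.847 for the fibroblast markers, where replicate 3 (-0.56) was again the low array. It took 0.831 for the ribosomal protein genes, with replicate 4 (0.25) above the others (-0.37 to -0.26), and 0.909 for erythroid and liver transcripts, with replicate 1 (-0.99) below the others (-0.19 to -0.11).

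Of 19 named better-measured probes with 3 values at 10 h, 8 had every array at 10 h on the other side of 0 from every array at 3 h. They were chosen for 1 sign at 3 h, so a value nearer to or past 0 at 10 h is partly built in. Of all 320 better-measured probes with 1 sign on the 4 arrays at 3 h and 3 values at 10 h, 111 (34.7%) did the same. The difference of 10 h minus 3 h was -1.32 for Srm, -0.86 for Il7r and -0.84 for Pfn1, which were positive at 3 h. It was 2.38 for Dbp, 2.27 for Slc34a3, 1.95 for Znrf1, 1.89 for Asic2 and 1.54 for Snx18, which were negative at 3 h. In limma over all probes none of these differences passed, with adjusted p-values of 0.556 (Dbp, Znrf1 and Asic2) to 0.624 (Pfn1).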

How the results depend on the processing

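No probe passed under 13 of the 14 alternatives at 3 h. With the repeated extreme values kept, 37 passed (smallest adjusted p 0.0425), since a stand-in near 16 then counts as a ratio. The unadjusted count of 1074 was 642 read as Cy5 over Cy3, 426 with coarse values left out (of 4158 probes fitted) and 496 to 1128 with each array left out, lowest without replicate 2; higher calls were 38.1% of it, but 24.3% among probes with 4 values and 26.5% with both times fitted together.

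Read as Cy5 over Cy3, 16 named probes turned sign, to values of Senp2 -0.59, Chmp1b -0.71, Fam3c -0.56, Sod1 -0.75, Msmo1 -0.034, Dlk1 -0.19 and -0.14, Akap9 -0.16, Il7r -0.10, Fam83g -0.10, Hgs -0.30, Pfn1 -0.15, C2cd3 0.19, Hdac11 0.68, Znrf1 0.05 and Snx18 0.037. At the gene level 19 turned, to Hmgcs1 -0.36, Msmo1 -0.034, Fdft1 -0.026, Atf4 -0.20, Atf5 -0.30, Col1a1 -0.45, Sparc -0.21, Mmp14 -0.96, Pxn -0.55, Pfn1 -0.40, Rplp0 -0.56, Cacna1f -0.86, Btg2 0.06, Klf6 0.13, Zfp36 0.52, Ndufb3 0.43, Ndufs6 0.02, Nfe2l2 0.66 and Sparcl1 0.36. The difference between times turned for Msmo1 (0.048), Dlk1 (0.078 and 0.055), Akap9 (0.15), Hgs (0.069), Pfn1 (0.041) and Ptpre (0.17). With extreme values kept, Cacna1f was -2.18, Eif4e -0.24, Ndufs6 1.88, Pik3ip1 -0.71 and Slc2a3 -1.83. With each array left out, Gclc ran from -0.28 to 2.37. The difference of Akap9 was 0.045 with the replicate block, and -0.25 to 0.10 with each array left out.

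List medians moved past the spread between arrays as follows. Read as Cy5 over Cy3, ATF4 targets were at -0.055, G2/M -0.089, matrix proteases 0.045, translation factors -0.17 and channels 0.079. With extreme values kept, glycolysis was at -0.16, matrix proteases 0.32 and oxidative stress 0.27. With coarse values left out, ATF4 targets were at 0.51, sterol synthesis 0.60, G1/S 0.11, apoptosis 0.34, fatty acid synthesis 0.32, glycolysis 0.27, lysosome 0.27, translation factors 0.36, matrix proteases 0.084, and adipocyte, macrophage and epithelial markers -1.03, -1.60 and 0.11. With coarse values left out only 4158 probes were fitted, and the median over all genes was 0.047. No probe of the adipocyte or macrophage lists was better measured. Epithelial markers were at 0.14 with values on all 4 arrays. With each array left out, the medians ran from 0.14 to 0.45 for ATF4 targets, -0.051 to 0.21 for G2/M, -0.36 to 0.27 for epithelial and -0.49 to 0.47 for muscle markers, -0.28 to 0.15 for matrix proteases, -0.79 to -0.12 for channels, 0.022 to 0.26 for fatty acid synthesis, -0.083 to 0.21 for lysosome, -0.20 to 0.19 for proteasome and -0.14 to 0.22 for glycolysis. Over all genes the median ran from -0.20 to -0.034 with each array left out. The cause was not tested.

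With the replicate block in place of the dye term, 0 probes passed for 10 h minus 3 h (smallest adjusted p 0.607), and 889 against 926 had an unadjusted p under 0.05. Same-numbered arrays of the 2 times correlated at 0.0335, 0.0293 and 0.0952 in their deviations, so the numbers were not taken as pairs; replicate 1 at 3 h correlated better with replicate 2 at 10 h (0.0455). Signal over background is not analysed here.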
